A study of Mus musculus with 6 samples.

Results

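The 7 genes *Ly6c2*, *Treml4*, *Ms4a4c*, *Lst1*, *Sema4d*, *Ace* and *Plac8*, grouped here as monocyte genes, were read among the myeloid cells of the mouse peritoneum. All 7 were found among the 55538 genes of a single-cell RNA table. Of 7665 cells kept, 2773 (36.2%) were myeloid, that is, they held at least 2 unique molecular identifiers (UMIs, counts of captured RNA molecules) of *Csf1r*, *Adgre1* and *Fcer1g* summed, at most 2 of the B cell receptor genes *Cd79a* and *Cd79b*, and at most 1 of the T and NK cell genes *Cd3d*, *Cd3e* and *Nkg7*. Within them, 19 cells reached at least 2 summed UMIs of *Ly6c2*, *Treml4* and *Ms4a4c* and are called positive cells here, or 0.685% of myeloid cells (exact binomial 95% interval 0.413–1.07%). The other 2754 myeloid cells, 3101 B cells (at least 4 UMIs of *Cd79a* and *Cd79b*) and 667 T/NK cells (at least 2 UMIs of *Cd3d*, *Cd3e* and *Nkg7*) were set beside them. Of these lymphocytes, 153 met both rules. The genes and the rule were picked from values measured in these same cells, so the levels are a description without a test.

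The study profiled resident peritoneal cells of C57BL/6J mice (C57BL/6 in the labels) of 8 to 12 weeks, either MerTK +/+ or MerTK -/- (a line the labels call MerKD), with droplet 5′ RNA-seq. Cells of 3 mice were pooled for each group, kept if they adhered to plastic within 1 h, and either given a media change (control) or cultured with UV-killed human Jurkat T cells for 2 h or 6 h, giving 1 library for each genotype and treatment. MerTK is a receptor through which MΦs take up apoptotic cells, a process called efferocytosis. The deposited cells carry a library number from 1 to 6 that no label ties to a genotype or time, so values are given over all libraries and by library number, no genotype or time is compared, and the targeted gene cannot check a label.

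Mouse blood monocytes come as classical cells, which carry much Ly6C, enter inflamed tissue through the chemokine receptor CCR2 and can become MΦs or dendritic cells (DCs), and nonclassical cells, which carry little Ly6C, patrol vessel walls and depend on the transcription factor NR4A1. The peritoneum holds resident large peritoneal MΦs (LPMs), which depend on GATA6, and fewer small peritoneal MΦs (SPMs), which carry MHCII and are replaced from monocytes. *Ly6c2* encodes the Ly6C antigen, *Treml4* a receptor of the TREM family found on nonclassical monocytes and some DCs, and *Ms4a4c* a membrane protein of the MS4A family. *Lst1* encodes a small membrane protein of leukocytes, *Sema4d* the semaphorin CD100, *Ace* the angiotensin-converting enzyme of endothelium and nonclassical monocytes, and *Plac8* a small cysteine-rich protein of monocytes and lymphocytes.

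Depth was 4234786 to 10287079 UMIs per library, and positive cells had a median of 5883 UMIs against 4423 in other myeloid cells, 5561 in B cells and 3206 in T/NK cells. The cells labelled as peritoneal MΦs were more often B cells (40.5%) than myeloid. Among 7732 barcode sequences, 28 occurred in more than 1 library. Library numbers 1 to 6 held 7, 4, 3, 3, 0 and 2 positive cells. Number 5 therefore adds no positive cell, and number 1 adds the most. Counts of libraries with a higher or lower level below rest on 2 to 7 positive cells per library. For genes with few UMIs they can mean only that a UMI was found or not. All intervals cover counting error only.

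In the GRCm38 annotation (GENCODE vM21) *Ly6c2* lies on chromosome 15 (75108158–75111970, minus strand), beside its paralog *Ly6c1* (75044018–75048830, minus strand). *Ms4a4c* lies on chromosome 19 (11404770–11427246, plus strand), beside *Ms4a4b* (11443553–11467055, plus strand). *Treml4* (48264295–48275360, plus strand) and *Lst1* (35185095–35188439, minus strand) are on chromosome 17. *Sema4d* is on chromosome 13 (51685529–51793747, minus strand), *Ace* on chromosome 11 (105967945–105989964, plus strand) and *Plac8* on chromosome 5 (100553725–100572245, minus strand).

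Start-site windows (250 bases before to 50 after the start, RefSeq, GRCm38.p6) are shown for the 3 rule genes and for the neighbours *Ly6c1* and *Ms4a4b*, since each pair lies side by side and is close in sequence. Capitals mark GAGGAAGT, a site of the myeloid factor PU.1. The windows are *Ly6c2* chr15:75111922-75112221 (minus), *Ly6c1* chr15:75048788-75049087 (minus), *Ms4a4c* chr19:11407411-11407710 (plus), *Ms4a4b* chr19:11443308-11443607 (plus) and *Treml4* chr17:48264045-48264344 (plus).
Ly6c2: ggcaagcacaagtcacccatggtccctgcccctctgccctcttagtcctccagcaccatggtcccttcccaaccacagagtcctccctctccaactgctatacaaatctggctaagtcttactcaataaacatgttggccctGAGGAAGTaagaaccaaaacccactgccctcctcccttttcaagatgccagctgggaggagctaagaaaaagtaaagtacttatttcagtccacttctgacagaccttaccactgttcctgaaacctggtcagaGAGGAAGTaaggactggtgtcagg
Ly6c1: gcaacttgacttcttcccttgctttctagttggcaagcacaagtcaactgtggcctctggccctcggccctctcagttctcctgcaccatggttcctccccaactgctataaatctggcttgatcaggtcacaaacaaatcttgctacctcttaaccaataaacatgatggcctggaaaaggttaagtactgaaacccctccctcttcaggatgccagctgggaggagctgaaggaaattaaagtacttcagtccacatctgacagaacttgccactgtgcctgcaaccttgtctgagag
Ms4a4c: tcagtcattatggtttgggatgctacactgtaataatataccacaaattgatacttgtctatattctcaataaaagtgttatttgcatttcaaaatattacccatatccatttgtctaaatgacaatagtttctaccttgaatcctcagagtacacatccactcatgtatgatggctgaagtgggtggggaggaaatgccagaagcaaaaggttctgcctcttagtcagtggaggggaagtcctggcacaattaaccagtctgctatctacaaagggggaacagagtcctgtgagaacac
Ms4a4b: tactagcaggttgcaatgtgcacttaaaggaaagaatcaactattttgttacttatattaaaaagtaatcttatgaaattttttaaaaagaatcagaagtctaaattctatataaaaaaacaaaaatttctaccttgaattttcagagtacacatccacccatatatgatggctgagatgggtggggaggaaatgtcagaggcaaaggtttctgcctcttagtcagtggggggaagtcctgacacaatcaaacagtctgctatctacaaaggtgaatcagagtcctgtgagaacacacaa
Treml4: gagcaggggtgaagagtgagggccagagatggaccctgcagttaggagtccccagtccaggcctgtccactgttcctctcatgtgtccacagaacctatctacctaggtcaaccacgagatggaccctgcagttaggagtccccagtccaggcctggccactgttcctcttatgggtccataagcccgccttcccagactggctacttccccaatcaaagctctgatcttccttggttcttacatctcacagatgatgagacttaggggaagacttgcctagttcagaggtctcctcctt

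GAGGAAGT was searched on both strands and stands in 3.2% of all 32851 RefSeq windows. *Ly6c2* held it at 108 bases before and 26 bases after the start, and no other member's window held it. The printed *Ly6c1* window ends within these letters, and a window for its other RefSeq start holds them once. Over aligned columns the printed windows of *Ly6c2* and *Ly6c1* were 62.9% identical, and those of *Ms4a4c* and *Ms4a4b* 73.8%. AAAGGTCA, an NR4A site found in 1.51% of windows, was in none of the 6 members with a window. TTGCNNAA, a C/EBP site found in 10.8% of windows, was in 1 member, *Plac8*. *Lst1* has no window in the table.

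Rule genes first, *Treml4* was the one most often seen in the positive cells, with 29 UMIs in 13 of 19 (68.4%, 43.4–87.4%), or 237 CPM (UMIs of the gene per 1000000 UMIs of the class, 95% Poisson interval 159–340). Library numbers 1, 2, 3, 4 and 6 gave 159, 218, 137, 408 and 998 CPM. Every library with positive cells thus held it, and the value of number 6 rests on 5 UMIs in 2 cells. In other myeloid cells *Treml4* gave 1 UMI in each of 51 of 2754 cells (1.85%, 1.38–2.43%, 3.73 CPM), with 1.48 to 5.03 CPM by library. It was in 0 of 3101 B cells, so that a share of up to 0.0967% cannot be told from 0, and in 1 of 667 T/NK cells (0.150%). *Treml4* was the only rule gene less frequent in both lymphocyte classes than in other myeloid cells.

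*Ly6c2* was found in 6 of 19 positive cells (31.6%, 12.6–56.6%), with 16 UMIs or 131 CPM (74.7–212), of which 12 UMIs came from 2 cells with 6 each. By library numbers 1, 2, 3, 4 and 6 it stood at 19.9, 109, 205, 357 and 0 CPM. In other myeloid cells it was at 0.513 CPM, 7 UMIs in 7 cells (0.254%), with 0 to 1.12 CPM by library. Over all 2773 myeloid cells only 13 held a *Ly6c2* UMI, so counted *Ly6c2* UMIs were rare in this compartment. Reads that cannot be told from the paralog *Ly6c1* may be missing from this count. T/NK cells held it more often, in 9.60% (7.47–12.1%) at 32.9 CPM, and B cells in 1.74% (1.31–2.27%) at 3.93 CPM.

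*Ms4a4c* was found in 9 of 19 positive cells (47.4%, 24.4–71.1%), with 21 UMIs or 171 CPM (106–262), and library numbers 1, 2, 3, 4 and 6 gave 219, 328, 34.2, 153 and 0 CPM. Other myeloid cells were at 1.39 CPM, 19 UMIs in 19 cells (0.690%), with 0 to 3.22 CPM by library. B cells held it in 10.1% (9.06–11.2%) at 18.3 CPM, with 11.4 to 25.5 CPM by library, and T/NK cells in 6.45% (4.70–8.59%) at 14.8 CPM. Its lymphocyte levels overlapped between these classes across libraries and lay above the other myeloid cells in the pool.

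How far each rule gene followed the other 2 was read by leaving it out of the rule. *Ly6c2* was then in 3 of 16 cells (18.8%) against 10 of 2757 (0.363%), and *Treml4* in 3 of 9 (33.3%) against 61 of 2764 (2.21%). *Ms4a4c* was in 1 of 11 (9.09%) against 27 of 2762 (0.978%), a difference resting on 1 cell. Both measured gene and rule come from the same cells, so these shares remain descriptive.

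Of the genes outside the rule, *Lst1* was found in 8 of 19 positive cells (42.1%, 20.3–66.5%), with 24 UMIs or 196 CPM (126–292). Library numbers 1, 2, 3, 4 and 6 gave 159, 218, 239, 255 and 0 CPM. Other myeloid cells were at 2.86 CPM (31 of 2754, 1.13%), with 0.770 to 10.3 CPM by library. In the positive cells of library number 1, 1 UMI already stands at 19.9 CPM, so single libraries are not ranked against this range. B cells were at 2.98 CPM (1.84%, 1.40–2.38%) and T/NK cells at 5.53 CPM (2.70%, 1.61–4.23%), the latter share above that of other myeloid cells (0.766–1.59%). The log2 ratio of CPM, positive over other myeloid cells, was 6.10 (exact conditional 95% interval 5.30–6.87).

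*Sema4d* was found in 11 of 19 positive cells (57.9%, 33.5–79.7%), with 29 UMIs or 237 CPM (159–340), and stood at 119, 382, 376, 255 and 0 CPM in library numbers 1, 2, 3, 4 and 6. Other myeloid cells were at 9.45 CPM (3.23% of cells), with 6.81 to 14.6 CPM by library. Its log2 ratio was 4.65 (4.01–5.24). Unlike *Lst1*, *Sema4d* was common in lymphocytes, at 82.4 CPM in T/NK cells (32.5%) and 48.2 CPM in B cells (24.3%). The order positive, T/NK, B and other myeloid cells held in the pool, while the T/NK range by library, 52.5 to 128 CPM, overlapped the B cell range of 33.9 to 60.8 CPM and the positive cell values.

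*Plac8* was at 131 CPM (74.7–212) in positive cells, with 16 UMIs in 6 of 19 (31.6%), against 20.4 CPM and 4.79% in other myeloid cells. Library numbers 1, 2, 3, 4 and 6 gave 19.9, 54.6, 68.4, 612 and 0 CPM in positive cells and 33.1, 35.4, 36.9, 4.44 and 2.58 CPM in other myeloid cells. Number 4, with 12 of the 16 UMIs in 2 cells, thus set the pooled value. The value of number 1 rests on 1 UMI and the 0 of number 6 on 2 cells, so neither shows a lower level. The log2 ratio of 2.68 (1.85–3.40) became 0.60 without number 4 and 3.83 without number 1. *Plac8* was foremost a lymphocyte gene, in 73.1% (71.5–74.7%) of B cells at 951 CPM and in 32.4% of T/NK cells at 314 CPM, or in 20.8% at 159 CPM of those that were not also B cells. B cell values of 346 to 1245 CPM by library overlapped those of T/NK cells, 221 to 447 CPM.

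*Ace* gave no UMI in the 19 positive cells, a result that still allows a share of up to 15.8% and a level of up to 24.5 CPM. In other myeloid cells it gave 1 UMI in each of 15 cells (0.545%, 1.10 CPM), spread over all 6 libraries at 0.644 to 1.54 CPM. It was in 1 B cell and 1 T/NK cell. At this depth no difference in *Ace* was detectable, and none of the cells picked by the rule genes held it.

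**Figure D1:**
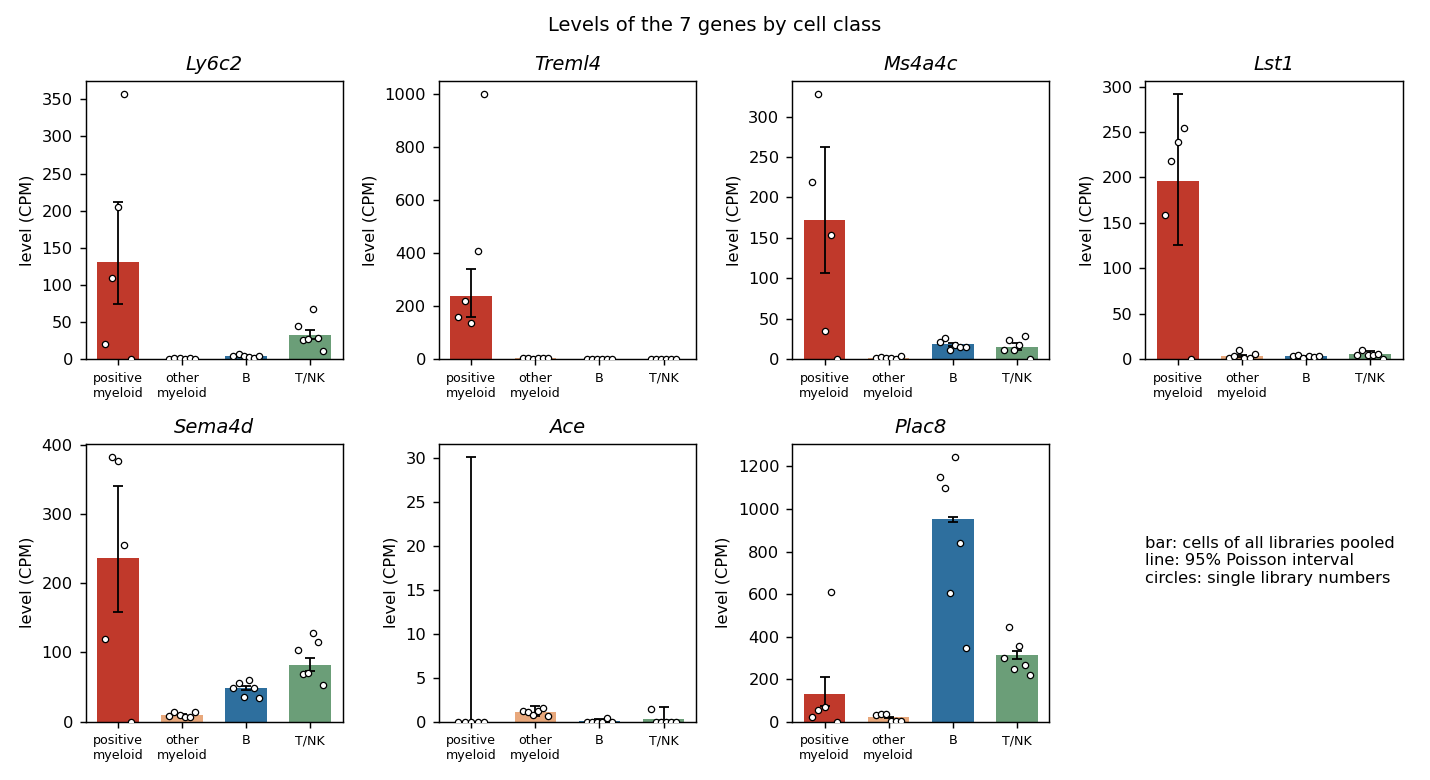
Level of each gene in CPM (linear axis from 0, scaled separately in each panel) in positive myeloid, other myeloid, B and T/NK cells. Bars pool the cells of all libraries, lines are 95% Poisson intervals and circles are single library numbers. *Lst1*, *Treml4*, *Ly6c2* and *Ms4a4c* stand highest in positive cells, whereas *Plac8* stands highest in B cells at 951 CPM. For *Treml4*, *Ly6c2* and *Ms4a4c* this follows from the rule that picked these cells.

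Of the 7 genes, *Treml4*, *Sema4d* and *Plac8* reached the minimum of 5 CPM over myeloid cells, *Treml4* only through the positive cells, and all 3 were at least 2-fold higher in positive cells. Of the 8710 genes at that minimum, 13.1% were at least 2-fold higher and 11.9% at least 2-fold lower, with a median log2 ratio of 0.23 and 1369 genes at 0 UMIs in the 19 cells. The members' count follows from how the cells were picked and nothing is read from it.

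UMIs per cell showed that the positive cells were not alike. No cell held more than 5 of the 7 genes, 4 cells held 5, 4 cells held 4, 3 cells held 3 and 8 cells held 1. Of the 8 cells with UMIs of at least 2 rule genes, 7 also held *Lst1*, 8 *Sema4d* and 4 *Plac8*. Of the 11 cells that passed on repeated UMIs of 1 rule gene, 1 held *Lst1*, 3 *Sema4d* and 2 *Plac8*. These 11 were 8 cells with *Treml4*, 2 with *Ms4a4c* and 1 with *Ly6c2*. *Lst1* and *Sema4d* were thus found mostly in the cells in which the rule genes occurred together. They were picked from a cluster of these same cells, so this is a description and gives no independent support.

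**Figure D2:**
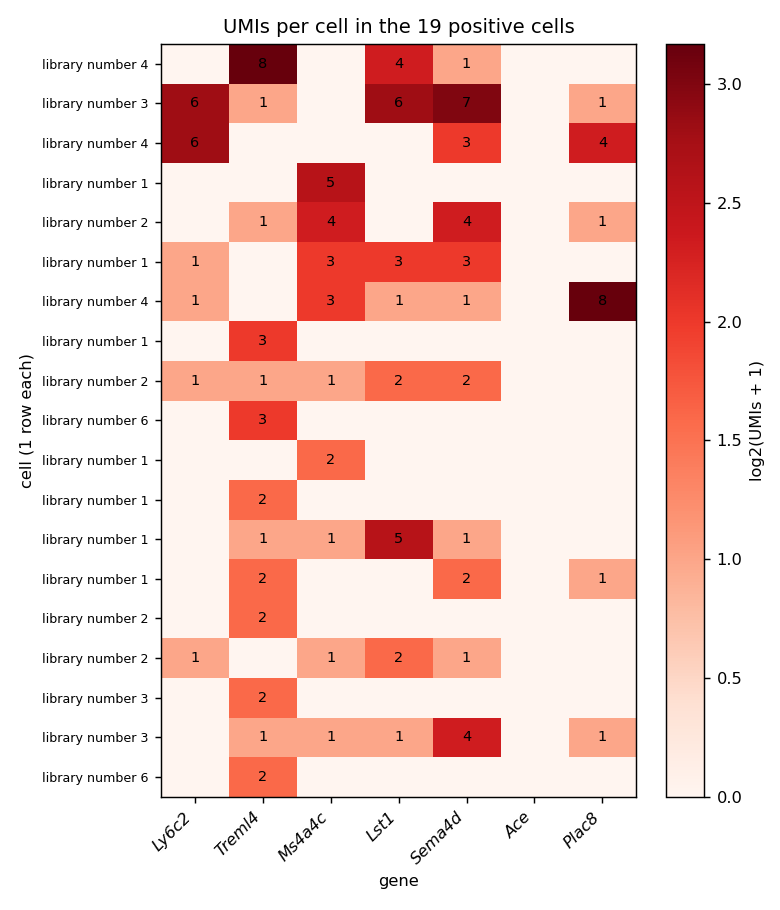
UMIs of the 7 genes (columns) in each of the 19 positive cells (rows, named by library number and ordered by summed UMIs of the rule genes). Colour is log2(UMIs + 1) and each number is the UMI count. *Ace* is empty in all rows, and 8 rows hold UMIs of 1 gene alone.

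Around the threshold, 9 cells had exactly 2 summed UMIs, 10 had 3 or more and 77 had 1. *Lst1* was in 29 of 2677 myeloid cells with 0 summed UMIs (1.08%), in 2 of 77 with 1 (2.60%, 0.316–9.07%), in 3 of 9 with 2 (33.3%, 7.49–70.1%) and in 5 of 10 with 3 or more (50%). *Sema4d* was in 3.03%, 10.4% (4.59–19.4%), 44.4% (13.7–78.8%) and 70% of the same sets. Cells just outside the threshold were thus closer to the cells with 0 than to those with 2 for both genes. Both genes were picked from these same cells, so no support for the threshold is read from this. *Plac8* was in 4.63%, 10.4%, 22.2% and 40%. *Ace* was in 14 of the 2677 cells with 0 and in 1 of the 77. Median depth in these sets was 4411, 4826, 6198 and 5130 UMIs, and its part in the shares was not tested. The 77 cells held *Treml4* in 51, *Ms4a4c* in 19 and *Ly6c2* in 7.

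**Figure D3:**
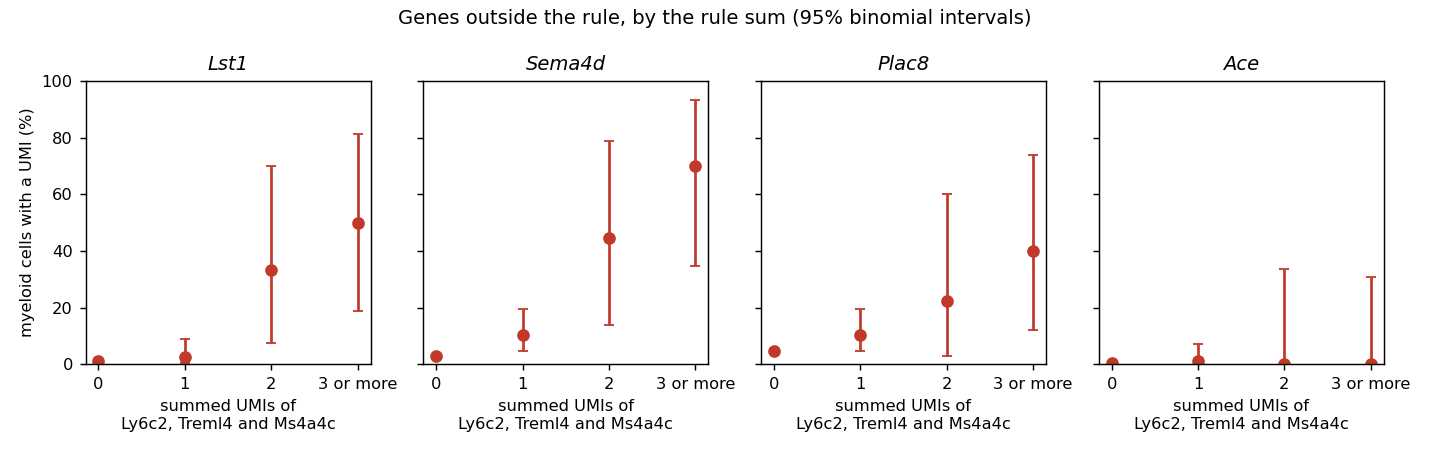
Share of myeloid cells with a UMI of *Lst1*, *Sema4d*, *Plac8* or *Ace* (percent, linear axis) by summed UMIs of *Ly6c2*, *Treml4* and *Ms4a4c*. Points are shares over all libraries and lines are exact binomial 95% intervals. *Sema4d* went from 3.03% of cells with 0 to 70% of cells with 3 or more, whereas *Ace* was not seen in cells with 2 or more.

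Across all 2773 myeloid cells, 15 held both *Lst1* and *Sema4d*, which is 38.5% of the 39 cells with *Lst1* and 15% of the 100 with *Sema4d*. *Sema4d* was found in 3.11% of cells without *Lst1*. *Ms4a4c* and *Sema4d* met in 11 cells (39.3% of 28 and 11% of 100), and *Treml4* and *Sema4d* in 11 (17.2% of 64). *Ly6c2* met *Ms4a4c* in 4 cells and *Treml4* in 2. *Ace* met *Sema4d* in 2 of its 15 cells, *Treml4*, *Lst1* and *Plac8* in 1 each, and *Ly6c2* and *Ms4a4c* in 0, and every one of its cells held 1 UMI, counts too low to set it apart from the other genes. Cells holding a gene were deeper than those without it for *Ace* (median 6324 against 4424 UMIs), *Plac8* (6202.5 against 4352), *Treml4* (5585.5 against 4411), *Lst1* (4956 against 4422.5), *Ms4a4c* (4844 against 4424) and *Ly6c2* (4604 against 4425.5), but not *Sema4d* (4418.5 against 4428). The part of depth in these meetings was not tested.

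The genes detected in the most similar cells were named by the Jaccard index, the cells with both genes divided by the cells with either, over the 2773 myeloid cells and among genes found in at least 20 of them. For *Ly6c2* they were *Ms4a6b* (0.139), *Ms4a4c* (0.108) and *Lst1* (0.106). For *Ms4a4c* they were the lysophospholipid receptor gene *P2ry10* (0.121), the MHCII gene *H2-Eb2* (0.12) and *Lst1* (0.117). *Lst1* was nearest to *Sema4d* (0.121), *Ms4a4c* (0.117) and the lectin gene *Clec12a* (0.105), and *Sema4d* to *Plbd1* (0.137), *Clec12a* (0.129) and *Myo1g* (0.127). *Treml4* had other neighbours, the amino acid oxidase gene *Il4i1* (0.0952), the MHCII transactivator *Ciita* (0.0860) and *Glipr1* (0.0847). *Plac8* was nearest to *Gpr132* (0.112), the histidine decarboxylase gene *Hdc* (0.109) and *Itgb7* (0.102). The nearest genes of *Ace* (*Atg10*, *Gm15013* and *Ogfod3*) shared 3 cells each with it. All indices were low, and the cells compared share libraries and depth.

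Related genes showed which members of each family were in the positive cells. *Ly6c1* was in 0 of 19 positive cells and in 1 of 2754 other myeloid cells, but in 16.04% of T/NK cells (69.0 CPM), the class in which *Ly6c2* was also found. The longest coding transcripts of *Ly6c2* and *Ly6c1* were 95.02% identical with a shared run of 188 bases. Reads from such stretches could not be told apart, so the split between them and their counts are uncertain. *Ly6a*, in 90.0% of B cells at 905 CPM, was in 1.96% of other myeloid cells at 7.03 CPM and in 2 of 19 positive cells. *Ly6e* was in 57.9% of positive and 25.6% of other myeloid cells.

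Of the MS4A genes, *Ms4a6c* was in 63.2% of positive cells (229 CPM) and 14.1% of other myeloid cells (45.8 CPM), and *Ms4a4a* in 26.3% and 6.86%. *Ms4a6d* was in 36.8% of positive cells (16.3–61.6%), an interval that holds the 31.2% of other myeloid cells. *Ms4a6b* was in 26.3% of positive and 0.835% of other myeloid cells, but in 70.5% of T/NK cells. *Ms4a4b*, the neighbour of *Ms4a4c*, was in 1 positive cell and in 58.6% of T/NK cells. The transcripts of this pair share a run of 127 bases, so their counts are uncertain in part as well. *Trem2*, a lipid receptor gene of MΦs, was in 1 positive cell (5.26%) and 8.75% of other myeloid cells, and *Trem3* and *Treml1* gave no UMI in positive cells. *Sema4a* was in 47.4% of positive and 6.03% of other myeloid cells. *Ms4a4d* gave no UMI in any myeloid cell, and *Trem1* (26.3% and 19.8%) and *Treml2* (10.5% and 0.290%) were in some positive cells.

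**Figure D4:**
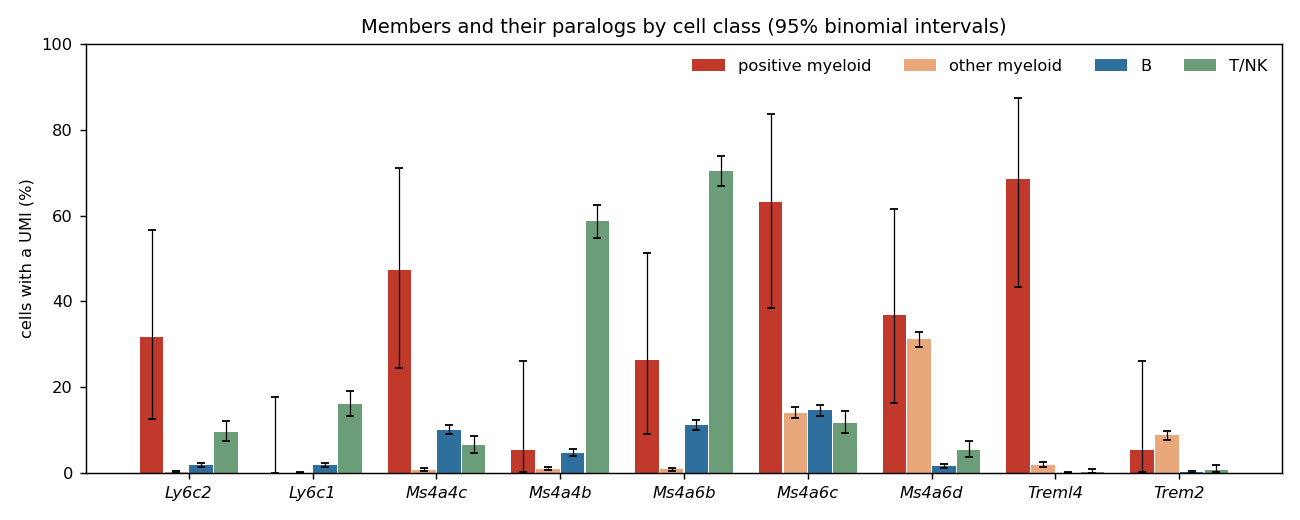
Share of cells with a UMI (percent, linear axis) for *Ly6c2*, *Ms4a4c*, *Treml4* and related genes in positive myeloid, other myeloid, B and T/NK cells. Lines are exact binomial 95% intervals. *Ly6c1*, *Ms4a4b* and *Ms4a6b* stand highest in T/NK cells, whereas *Ms4a6c* stands highest in positive myeloid cells. *Ly6c2*, *Ms4a4c* and *Treml4* also stand highest there, which follows from the rule that picked these cells.

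Whether the positive cells carry a monocyte profile was read from marker lists, as counts of genes at least 2-fold higher or lower among those with at least 5 CPM over myeloid cells. Genes at 0 UMIs in the 19 cells enter a median at the upper bound that 3 UMIs give, so the median of a list with such genes is an upper bound, as is that over all genes. Of 10 classical monocyte genes, 3 were higher, 3 lower and 4 neither (median log2 ratio at most 0.10, against at most 0.23 over all genes, or at most -0.35 at a minimum of 10 CPM). *Ccr2*, the receptor for CCL2, was at 73.5 against 23.7 CPM and *Vcan* at 81.7 against 29.5 CPM. *Fn1* (fibronectin) was at 1086 against 9189 CPM, *F13a1* at 73.5 against 153 CPM and *Mgst1* at 24.5 against 71.2 CPM. Other myeloid cells held these genes in 96.5%, 32.6% and 25.1%, so none of them was particular to monocytes in these data. *Chil3* and *Ifitm6* gave no UMI in the 19 cells, but their 13.6 and 16.6 CPM in other myeloid cells lie below the 24.5 CPM that a count of 0 allows, so no absence is shown. The list went in both directions.

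Of 14 nonclassical monocyte genes, 10 reached the minimum, and of these 5 were higher, 2 lower and 3 neither (median 1.09). At a minimum of 10 CPM the median was 0.014 with 2 higher, and without library number 6 it was 0.52 with 3 higher. *Itgal*, an integrin subunit of leukocytes, was at 139 CPM in positive and 6.37 CPM in other myeloid cells (log2 ratio 4.45, 3.60–5.21), higher in 4 of 5 libraries. *Gngt2* was at 1111 against 325 CPM in 89.5% and 56.1% of cells, higher in 5 of 5 libraries. *Pou2f2* was at 65.3 against 19.3 CPM, from 8 UMIs in 4 cells, higher in 3 of 5 libraries. *Fcgr4* was at 32.7 against 8.93 CPM, from 4 UMIs (log2 ratio interval -0.03 to 3.26). *Ear2* was at 16.3 against 5.20 CPM, from 2 UMIs (-1.42 to 3.56). Both *Fcgr4* and *Ear2* were higher in 2 and lower in 3 of 5 libraries, with intervals that hold 0. Each had UMIs in 2 positive cells, so the libraries counted as lower held none and show no lower level. *Nr4a1* was at 343 against 237 CPM. *Cebpb* (229 against 633 CPM) and *Pglyrp1* (8.17 against 19.5 CPM) were lower. Below the minimum, *Cx3cr1*, the fractalkine receptor of these monocytes, was at 32.7 against 3.95 CPM and *Spn* at 32.7 against 2.78 CPM, each with UMIs in 2 of 19 cells. *Cd300e* gave no UMI in positive cells and 1 in all other myeloid cells.

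Of 12 LPM genes, 9 were lower and 0 higher (median at most -1.77), or 5 lower and a median of at most -0.89 without library number 1. *Gata6*, *Vsig4*, *Alox15* and *Cd5l* gave no UMI in the 19 cells, against 77.2 CPM of *Gata6* and 205 CPM of *Cd5l* in other myeloid cells. *Prg4* was at 155 against 1371 CPM, and *Adgre1*, encoding F4/80, in 5 of 19 cells (26.3%) against 56.2%. Of 10 SPM genes, 8 reached the minimum, with 2 higher (*Fcrls* and *Napsa*) and 0 lower (median at most 0.24, or at most -0.23 at a minimum of 10 CPM and 1.19 without library number 4). *Retnla* was in 2 positive cells, 1 of which held 125 of its 133 UMIs. *Folr2* and *Clec10a* gave none, against 16.1 and 8.79 CPM in other myeloid cells, which a count of 0 in the 19 cells still allows. The sign of this median rests on these genes at their bound.

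MHCII genes had the highest median of the 7 lists with at least 6 genes at the minimum, with all 6 of theirs higher (median 2.32). *H2-Aa* was at 6239 against 1119 CPM and in 19 of 19 positive cells against 49.1% of other myeloid cells, and the invariant chain gene *Cd74* at 17476 against 3890 CPM. Some of these positive cells held only 1 *H2-Aa* UMI. By cell, the summed level of the list was 351 to 60656 CPM in positive and 0 to 89914 CPM in other myeloid cells. High MHCII was thus not particular to the positive cells. *H2-DMb1*, of the peptide-editing complex, was at 171 against 20.1 CPM. *H2-Aa*, *H2-Ab1*, *H2-Eb1* and *Cd74* were higher in 5 of 5 libraries and *H2-DMb1* in 4. *H2-DMa* was higher in 2 and lower in 3, from 11 UMIs in 7 cells, too few to give a direction by library. Without library number 3, 5 genes of the list were higher. *Ciita*, below the minimum, was at 57.2 against 3.81 CPM. *H2-Aa* was already in 71.4% of the 77 cells with 1 summed UMI, against 48.4% of those with 0.

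Inflammatory cytokine genes went in both directions, with 1 of 9 higher and 4 lower (median at most -0.66, or -1.33 without library number 3). *Il1b* was at 3471 against 1002 CPM, higher in 3 of 5 libraries. *Il6* and *Cxcl1* gave no UMI in positive cells, against 226 and 402 CPM, *Tnf* was at 40.8 against 124 CPM and *Il1a* at 163 against 582 CPM. Of the dead cell receptor and bridging genes, 0 of 9 were higher and 1 (*Stab1*) lower (median at most -0.49, or 0.14 without library number 1). *Mertk* was at 24.5 CPM, from 3 UMIs, against 24.1 CPM, and *C1qa* at 212 against 387 CPM.

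**Figure D5:**
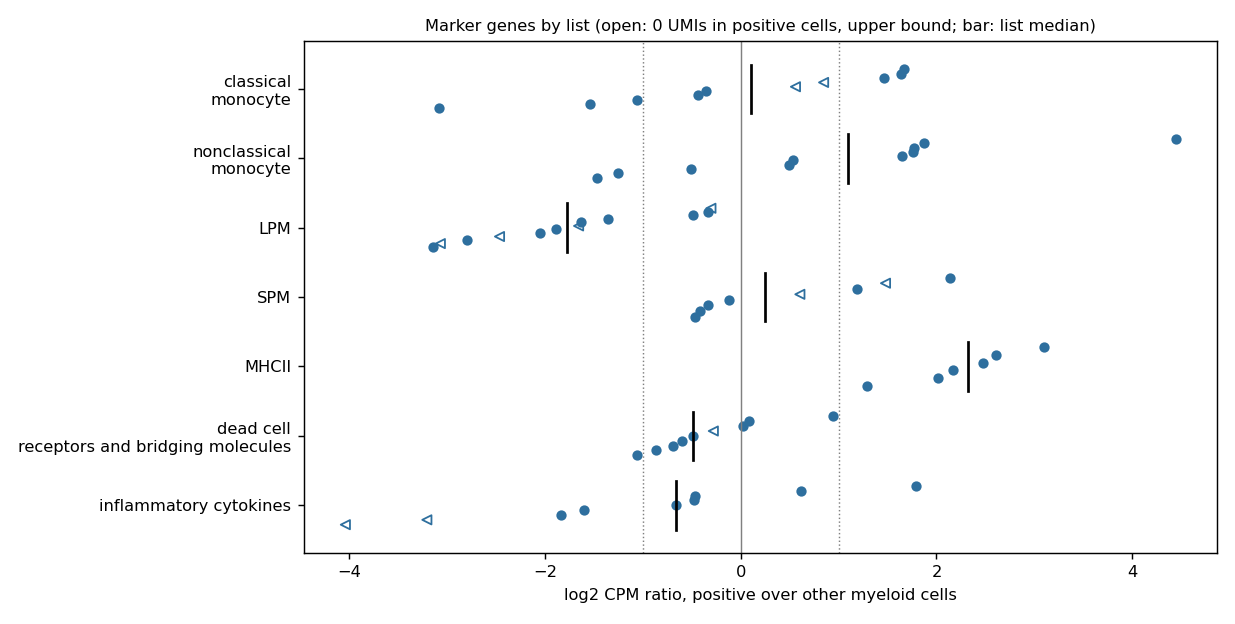
Log2 ratio of CPM, positive over other myeloid cells, for each marker gene with at least 5 CPM over myeloid cells, by list. Filled circles are genes with UMIs in positive cells, open triangles are genes with 0 UMIs there drawn at the upper bound that 3 UMIs would give, black bars are list medians and dotted lines mark 2-fold. All MHCII genes lie to the right of 2-fold and no LPM gene lies to the right of 0, with medians of 2.32 and at most -1.77.

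Markers of other cell types were also counted. T/NK list genes were in 15 of 19 positive cells against 547 of 2754 other myeloid cells, at a summed 751 against 152 CPM, and DC list genes in 11 of 19 against 1581 of 2754, at 555 against 274 CPM. B cell genes were in 2 of 19 against 100 of 2754 cells and neutrophil genes in 7 of 19 against 661. Of 9 neutrophil genes 7 were at 0, and *Csf3r* gave 7 UMIs in 7 cells, at 57.2 against 48.0 CPM. The summed neutrophil level was 0 to 199.5 CPM by library against 23.8 to 103 CPM in other myeloid cells. The mast cell genes *Cpa3*, *Mcpt4* and *Fcer1a* gave none, with 0, 2 and 0 UMIs in all other myeloid cells. The mast cell gene *Kit* gave 3 UMIs in 2 positive cells, at 24.5 against 1.68 CPM. Of 8 B cell genes 6 were at 0, among them *Ms4a1* and *Pax5*, and the summed level was 0 to 714 CPM by library against 15.7 to 86.99 CPM. Of 9 T/NK genes *Cd4*, *Gzma* and *Klrb1c* were at 0, and the summed level was 199.5 to 2075 CPM by library against 60.8 to 326 CPM. *Ccl5* was at 441 against 63.6 CPM, with 30 of its 54 UMIs in 1 cell, and *Il7r* at 278 against 74.7 CPM in 11 of 19 cells. *Ccl5* and *Il7r* gave 54 and 34 of the 92 UMIs of the T/NK list, and *Trac*, *Trbc2*, *Cd8a* and *Lck* gave 1 UMI each. Of 8 DC genes *Xcr1* and *Clec9a* were at 0, and 4 reached the minimum, with 2 higher, 1 lower and 1 neither. *Itgax* was at 188 against 49.0 CPM in 9 of 19 cells and *Ccr7* at 245 against 23.7 CPM in 2 cells. *Cd24a* was at 32.7 against 192 CPM, lower in 5 of 5 libraries. The summed DC level was 0 to 796 CPM by library against 235 to 422 CPM. The part of such cells in the members' values was not tested. In other myeloid cells each gene named here as at 0 lay below the 24.5 CPM that a count of 0 in the 19 cells allows, so no absence is shown.

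Single cells carried some of these markers. The cell of library number 4 that held 6 *Ly6c2* and 4 *Plac8* UMIs also held 8 UMIs of *Siglech*, a lectin gene of plasmacytoid DCs, 14 of *Ly6d*, 11 of *Igkc* and 1 of *Cd8a*, and no *Csf1r*. A cell of library number 1 with 2 *Ms4a4c* UMIs held 28 of *Ccr7* and 13 of *Fscn1*, genes of migrating DCs. The other cell with 6 *Ly6c2* UMIs, of library number 3, held 6 of *Lst1*, 7 of *Sema4d*, 4 of *Il12a* and 62 of *Il1b*. Scrublet, which looks for doublets, called 47 of 7760 barcodes (0.606%), of which 0 were positive cells and 5 were myeloid. The 19 cells therefore mix cells with different leading genes and are given no cell type name here.

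By the lower bound of the log2 ratio, with members left out, 15 genes led the positive cells, of which 11 were found in 1 positive cell. These 11 include *Siglech*, *Ly6d* and *Fscn1*. The genes in at least 4 cells were *Il4i1* (8 of 19, 384 against 16.6 CPM, higher in 5 of 5 libraries), *Il12a* (4 cells, 8 UMIs, against 8 UMIs in 4 of 2754 cells) and *H2-Eb2* (4 cells, 81.7 against 2.71 CPM). The remaining leading genes were *Trbv26*, *A430010J10Rik*, *Klhl3*, *Cox6a2*, *Plat*, *Gstt3*, *Gm30211*, *Gm20531* and *Asb2*.

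Split by *Treml4*, the 13 positive cells with it and the 6 without it had similar levels of *Lst1* (205 CPM, 122–324, against 173 CPM, 63.5–376) and *Sema4d* (239 against 231 CPM). *Plac8* was at 45.6 CPM (12.4–117) with and 346 CPM (179–604) without *Treml4*, the latter from 2 cells of library number 4. *Cd36*, a scavenger receptor gene, was at 1196 CPM (979–1448) with and 432 CPM (242–713) without, and *C1qb* at 1128 CPM (917–1373) and 375 CPM (199.6–641). *H2-Aa* was at 6027 and 6775 CPM. The *Treml4* cells were deeper (median 6198 against 5056.5 UMIs), and the split uses a rule gene, so it only describes the spread among the 19 cells.

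In lymphocytes the genes were further set by subset, chosen after their values were seen, in T/NK cells that were not also B cells and held *Cd8a* (82 cells, median 3038 UMIs) or *Cd4* (117 cells, 2860 UMIs). *Plac8* was in 43.9% (33.0–55.3%) of *Cd8a* cells and 9.40% (4.79–16.2%) of *Cd4* cells. *Ly6c2* was in 15.9% (8.72–25.6%) and 9.40% (4.79–16.2%), and *Sema4d* in 36.6% and 32.5%, with overlapping intervals. Among B cells that were not also T/NK cells, *Ms4a4c* was in 18.8% (12.99–25.9%) of 154 cells with *Fcer2a*, a gene of follicular B cells, and 9.52% (8.46–10.7%) of 2794 without. *Plac8* was in 59.1% and 74.0% of these, at 440 and 1022 CPM. *Treml4* was in none of these subsets, the largest of which allows an upper limit of 0.107%.

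With every cell thinned to 1500 UMIs, the order of the classes by share stayed for 5 of the 6 genes found in positive cells (for *Treml4* with both lymphocyte classes at 0), and for *Plac8* positive and T/NK cells changed places. Positive cells were picked on counts before thinning, so their first place for *Ly6c2*, *Treml4* and *Ms4a4c* follows from the rule. *Lst1* and *Sema4d* were picked from the same cells, so their order is a description as well. *Sema4d* was in 42.1% of positive, 15.4% of T/NK, 8.39% of B and 1.42% of other myeloid cells, *Lst1* in 26.3%, 1.08%, 0.718% and 0.599%, and *Plac8* in 21.1%, 19.97%, 56.5% and 2.58%. *Ly6c2* was in 10.5%, 5.07%, 0.555% and 0.0374%, and *Ms4a4c* in 36.8%, 1.84%, 2.55% and 0.300%. *Treml4* was in 26.3% of positive cells, 0.711% of other myeloid cells and no lymphocyte. Thinning left out 83 other myeloid, 38 B and 16 T/NK cells and 0 positive cells. The share of *Plac8* in other myeloid cells lay far below that in lymphocytes at equal depth, and the part of free RNA in it was not tested.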

How the data were processed

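Droplet 5′ single-cell libraries, 1 per genotype and treatment, were joined by the authors into a single matrix of unnormalized UMI counts for every gene and barcode. STAR, run by Cell Ranger (2.2 in the submitters' processing notes, an older version in the paper), mapped the reads to human and mouse references, and mouse genes were counted. The annotation used is not given in the sources used here. Counts were deposited without scaling.

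Members, rule and lists were chosen with earlier results of these data known. Of 7760 barcodes, those under 500 genes, under 0.8 for the log number of genes divided by the log number of UMIs, or over 10% mitochondrial UMIs were dropped. Counts were summed over cells and divided by their UMIs (CPM). Poisson, binomial and conditional ratio intervals at 95% were exact (scipy 1.17.1, Python 3.11.15). No p-value is given, since a condition is 1 library, cells do not replicate it, and they were picked by these genes. Where a count was 0, up to 3 were allowed for, a limit somewhat below that of the exact 95% interval. Shares were also computed with cells thinned to 1500 UMIs. Doublets called by Scrublet in scanpy 1.11.5 (expected rate 0.01) were kept, and free RNA was not removed. Named genes were the members, their paralogs, the marker lists, the 3 nearest genes of each member and 15 leading genes, and a few of these are not reported here. Lists were read over genes with at least 5 CPM over myeloid cells, with a median where at least 6 genes passed. Identities come from global alignment (Biopython 1.88). The ratios and intervals were tested on simulated pooled Poisson counts. These hold no clustering of UMIs in single cells, so the intervals were not tested for it.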

Additional observations from a re-analysis of the deposited data

How the results depend on the processing

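Few cells limit all of this. The 19 positive cells became 10 (0.361% of myeloid cells) with at least 3 summed UMIs, 96 (3.46%) with at least 1, and 5 (0.245%) with cells thinned before the rule, which leaves fewer counts to pass it. Leaving out each library number gave 12 to 19 cells (12 without number 1), or 0.570 to 0.776%. Stricter limits on genes, no limits on cells, a myeloid gate of 4 UMIs, a UMI of *Csf1r* or *Adgre1* besides the gate, and removal of called doublets each kept the count within 1.5 times.

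With at least 1 summed UMI, the log2 ratios of *Lst1*, *Sema4d* and *Plac8* were 4.32, 3.27 and 1.84, and *Lst1* and *Sema4d* were in 10.4% and 19.8% of positive cells. With at least 3, the ratio of *Plac8* was 3.45, and with a UMI of *Csf1r* or *Adgre1* required it was 0.88 (-1.01 to 2.26). Thinned before the rule, the ratios of *Lst1*, *Ly6c2*, *Ms4a4c* and *Plac8* were 4.35, 12.13, 5.21 and 3.96, from 5 positive cells, with *Ly6c2* in 80% and *Lst1*, *Ms4a4c* and *Treml4* in 20% each. With the measured gene left out of the rule, the ratios of *Ly6c2*, *Treml4* and *Ms4a4c* were 4.25 (1.86–6.01), 3.38 (1.07–4.98) and 2.30 (-3.04 to 4.87), and *Treml4* and *Ms4a4c* were in 33.3% and 9.09%. Over leave-one-out settings, the ratios ranged from 0.60 to 3.83 for *Plac8*, 7.23 to 8.60 for *Ly6c2*, 5.75 to 6.37 for *Treml4*, 6.43 to 7.27 for *Ms4a4c*, 5.76 to 6.49 for *Lst1* and 4.37 to 4.99 for *Sema4d*. The same rule picked the cells in each of these settings. High ratios of *Ly6c2*, *Treml4* and *Ms4a4c* therefore follow from it, and no stability is read from their ranges.

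Thinned to 1500 UMIs, shares in B cells were 0% for *Ace*, 0.718% for *Lst1*, 0.555% for *Ly6c2*, 2.55% for *Ms4a4c*, 56.5% for *Plac8* and 8.39% for *Sema4d*, and in T/NK cells 1.08% for *Lst1*, 5.07% for *Ly6c2*, 1.84% for *Ms4a4c*, 19.97% for *Plac8*, 15.4% for *Sema4d* and 0% for *Treml4*, as fewer UMIs per cell must give. Without cells in both classes, *Ly6c2* was in 1.22% of B cells and *Plac8* in 20.8% of T/NK cells.

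At a minimum of 10 CPM the SPM list had 1 gene higher with a median of -0.23, the classical list a median of -0.35 and the nonclassical list 2 genes higher with a median of 0.014, as fewer genes were read. With no minimum, 4 SPM and 8 nonclassical genes were higher, and no median was taken. Leaving out each library number, the LPM list had 5 to 9 genes lower and a median of -1.92 to -0.89 (-0.89 without number 1). The SPM list had 1 to 3 genes higher, 0 to 1 lower and a median of 0.23 to 1.19. The nonclassical list had 3 to 5 higher, 1 to 2 lower and a median of 0.52 to 1.21. The dead cell list had 0 to 1 higher, 0 to 2 lower and a median of -0.52 to 0.14, positive without number 1, and the inflammatory list a median of -1.33 to -0.48. Medians of lists with genes at 0 UMIs in positive cells are upper bounds, which sets the sign for the SPM and classical lists at 5 CPM. The other causes were not tested.

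No paired analysis was possible because each group has 1 library and the library numbers are not matched to groups.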
